A study of Mus musculus with 2 samples.

Results

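The metallothioneins are small cysteine-rich proteins that bind zinc and copper. The members described here are Mt1, Mt2 and Mt3, chosen by name, and all 3 have a column in both deposited tables, out of 25595 gene columns in either table. The data are 2 single-cell RNA libraries of mouse cerebral cortex that was dissociated together with its meninges, the membranes around the brain, and enriched with magnetic beads for CD140a, the receptor encoded by Pdgfra. The N-PRα-KO library came from Nestin-Cre;Pdgfra flox/flox mice, in which Cre driven by Nestin removes Pdgfra in the neural lineage, so that the oligodendrocyte lineage should lose the receptor while meningeal fibroblasts keep it. The WT library came from C57BL/6J mice, and the series sets it against the N-PRα-KO library to examine fibroblasts in a poorly myelinated cortex. The labels give neither the age and sex nor the number of animals behind a library.

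Mt1 and Mt2 are transcribed in most tissues and are classic inducible genes: zinc acts through the transcription factor MTF1, glucocorticoid hormones through their receptor, and oxidative stress through the antioxidant pathway. In brain their best known sources are astrocytes and ependymal cells. Mt3 is enriched in the nervous system, was first described as a growth inhibitory factor, and responds little to metals.

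The genes lie side by side on chromosome 8 of GRCm38, all on the plus strand (GENCODE M21). Mt3 spans chr8:94152607-94154146, Mt2 spans chr8:94172664-94173568 and Mt1 spans chr8:94179082-94180327. Another gene of the cluster, Mt4, known from stratified epithelia, had 0 UMIs (unique molecules counted) in the N-PRα-KO library and 1 in the WT library. The predicted gene Gm45774 lies on the opposite strand across Mt2 and had 20 and 9 UMIs. The sources used here do not say whether counting used strand, so reads of Mt2 and Gm45774 may not be told apart, although Mt2 had 11895 and 2960 UMIs. No run of 50 bases in the principal transcripts of the members occurred in a transcript of another gene.

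The stretches just before the transcription starts are shown because Mt2 was the gene closest to Mt1 across cell classes in these data, and neither was closest to Mt3. Whether these stretches bear on that likeness was not tested. They are from RefSeq on GRCm38.p6, plus strand, and end before the start that RefSeq annotates. The Mt1 window was shortened to 243 bases, since it stops before the GENCODE start at position 94179082, which lies ahead of the RefSeq start at 94179089. Capitals mark every match to the core of the metal response element that MTF1 binds (TGCACNC or TGCGCNC) or of the antioxidant response element (TGACNNNGC), searched on both strands.

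Mt1, chr8:94178839-94179081: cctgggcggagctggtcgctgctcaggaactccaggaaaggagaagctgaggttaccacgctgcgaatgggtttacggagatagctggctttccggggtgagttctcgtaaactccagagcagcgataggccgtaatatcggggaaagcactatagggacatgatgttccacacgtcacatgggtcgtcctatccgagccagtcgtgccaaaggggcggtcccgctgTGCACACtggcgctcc
Mt2, chr8:94172368-94172617: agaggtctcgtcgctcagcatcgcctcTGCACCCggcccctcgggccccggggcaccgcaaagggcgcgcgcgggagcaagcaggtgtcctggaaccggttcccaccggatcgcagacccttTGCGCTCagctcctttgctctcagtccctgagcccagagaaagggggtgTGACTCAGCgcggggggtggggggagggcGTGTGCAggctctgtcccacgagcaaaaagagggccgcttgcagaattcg
Mt3, chr8:94152357-94152606: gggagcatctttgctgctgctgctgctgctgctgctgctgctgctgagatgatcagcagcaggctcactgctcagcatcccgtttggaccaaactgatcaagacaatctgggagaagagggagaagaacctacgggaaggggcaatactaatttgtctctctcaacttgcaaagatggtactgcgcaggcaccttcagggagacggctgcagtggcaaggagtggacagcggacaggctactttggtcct

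The Mt2 window held 3 metal response cores, 1 of them on the minus strand, and 1 antioxidant core whose first base lies 79 bases before the start. The Mt1 window held 1 metal response core, 23 bases before the start, and no antioxidant core. No match was found in the Mt3 window, which says only that these letters are not in it. Among 32851 mouse promoter windows of 250 bases, 21.4% held at least 1 metal response core, 1.26% held 3 or more and 10.2% held the antioxidant core. The Mt1 window was shorter than those windows. Bases after the annotated start were not searched, and whether transcription of Mt1 begins mainly at that start was not examined, so the counts do not compare the whole promoters of Mt1 and Mt2.

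A barcode counted as a cell when it held 300 or more genes and its mitochondrial share of UMIs did not exceed 25%. After doublet calls by Scrublet were dropped this left 4186 N-PRα-KO cells of 8336 barcodes (median 5781 UMIs) and 9895 WT cells of 11438 barcodes (median 3264 UMIs). Both limits were passed by 50.3% of N-PRα-KO and 88.0% of WT barcodes. Xist and Y-linked genes had UMIs in both libraries (15167 and 3495 in N-PRα-KO, 54712 and 275 in WT), so the libraries also differ in their mix of sexes. The libraries shared 105 barcodes, 38 of them among kept cells. Cells were grouped into 31 clusters without using Mt1, Mt2 or Mt3, and clusters were named "X-like" from marker genes. With 50 or more cells in both libraries, 9 classes could be compared. Several of these classes came from different clusters in the libraries: fibroblast-like cells were cluster 6 in N-PRα-KO and 11 in WT, and astrocyte-like cells clusters 14 and 21 in N-PRα-KO and 3, 4 and 20 in WT. In the same order, cluster 12 and cluster 17 held the ependymal-like cells, clusters 7 and 8 the microglia-like cells, clusters 13 and 19 most endothelial-like cells, and cluster 30 and clusters 0, 1, 2, 5 and 16 most OPC-like cells (oligodendrocyte progenitors). Neuronal-lineage-like, smooth-muscle-like and border-macrophage-like cells shared their clusters, and the smooth-muscle-like cluster also scored for pericyte markers. Pdgfra, the targeted gene, was at 3230 CPM in the 58 OPC-like cells that the N-PRα-KO library held and 4967 CPM in 4897 WT ones, so those 58 still carried its transcript. In fibroblast-like cells it was at 836 and 871 CPM.

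A level below is the UMIs of a gene summed over the cells of a class in a library, scaled to counts per 1000000 UMIs of those cells (CPM), with its exact Poisson 95% interval. With 1 library per genotype there was no test, and every interval covers counting error only, not the spread between animals or preparations. Genotype cannot be told apart here from animal, preparation, run of the pipeline or sex.

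Mt1 was led in both libraries by the cells that line the ventricles and by astrocytes. Ependymal-like cells stood at 4263 CPM (4203 to 4323) in N-PRα-KO and 2730 CPM (2658 to 2803) in WT. Astrocyte-like cells stood at 3600 CPM (3540 to 3660) and 687 CPM (668 to 706). The ependymal-like level was 1.56-fold higher in the N-PRα-KO library and the astrocyte-like level 5.24-fold, so the gap between these glia was much wider in the WT library.

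For Mt1 the libraries stood furthest apart in endothelial-like cells. Endothelial-like cells, the lining of blood vessels, had Mt1 at 1306 CPM (1276 to 1337) in N-PRα-KO and 110 CPM (97.0 to 125) in WT, an 11.8-fold difference. Smooth-muscle-like cells, the other vascular class, had 764 CPM (724 to 805) against 144 CPM (92.5 to 215), a 5.29-fold difference. The WT level came from 24 UMIs in 53 cells. The interval of that fold, 3.54 to 8.28, overlapped those of OPC-like (7.23 to 9.39) and neuronal-lineage-like cells (7.11 to 9.16). In both endothelial-like and smooth-muscle-like cells the level intervals of the libraries did not overlap.

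The immune classes kept a raised Mt1 level in the WT library. Microglia-like cells, the resident macrophages of brain tissue, had 932 CPM (899 to 967) in N-PRα-KO and 298 CPM (272 to 327) in WT. Border-macrophage-like cells, which live in the meninges and around vessels, had 1281 CPM (1199 to 1367) and 341 CPM (266 to 431). Both WT levels lay above those of the neural and endothelial-like classes of that library, astrocyte-like and ependymal-like cells excepted.

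Neural progeny and oligodendrocyte-lineage cells were at the low end for Mt1. Neuronal-lineage-like cells had 824 CPM (777 to 872) in N-PRα-KO and 102 CPM (91.2 to 114) in WT, and OPC-like cells 769 CPM (680 to 867) and 93.3 CPM (88.8 to 97.8), differences of 8.06-fold and 8.25-fold. Oligodendrocyte-like cells, numerous enough only in the WT library, had 116 CPM (98.3 to 136). Fibroblast-like cells had 740 CPM (715 to 766) against 319 CPM (297 to 342), which was the lowest Mt1 level of any class in N-PRα-KO but came just below border-macrophage-like cells in WT. Arachnoid-barrier-like cells, the sealing layer of the meninges, had 1354 CPM (1306 to 1404) in N-PRα-KO, and olfactory-sensory-neuron-like cells, also only in that library, 1404 CPM (1292 to 1524).

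The order of the Mt1 levels therefore differed between the libraries in its middle. In N-PRα-KO, ependymal-like and astrocyte-like cells each stood clear of the next class, the next 4 (olfactory-sensory-neuron-like, arachnoid-barrier-like, endothelial-like and border-macrophage-like) overlapped their neighbours, microglia-like cells stood alone, and the last 4 (neuronal-lineage-like, OPC-like, smooth-muscle-like and fibroblast-like) overlapped their neighbours. In WT, border-macrophage-like, fibroblast-like and microglia-like cells followed the astrocyte-like cells with overlapping intervals, and the remaining classes overlapped their neighbours between 93.3 and 144 CPM.

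**Figure D1:**
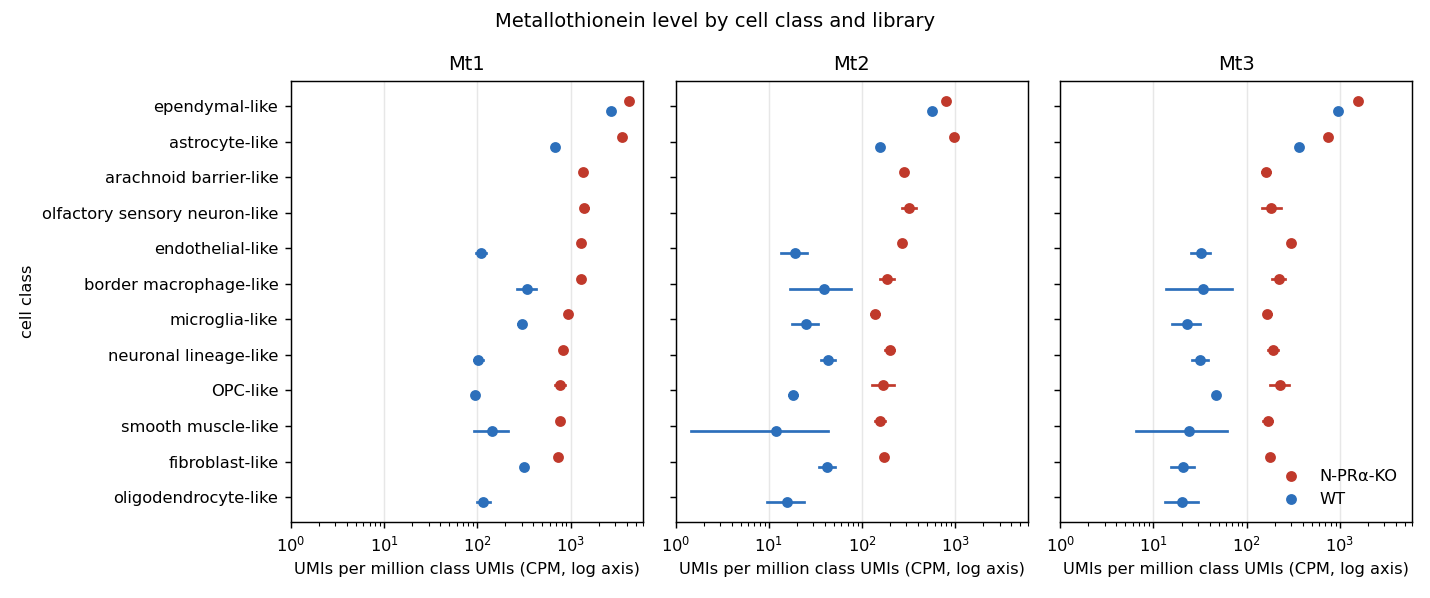
Level of Mt1, Mt2 and Mt3 by cell class (rows) in the N-PRα-KO (red) and WT (blue) libraries, in CPM on a log axis. Points are class sums and lines exact Poisson 95% intervals; classes with under 50 cells in a library have no point there. Ependymal-like and astrocyte-like cells lead in both libraries, and each red point lies to the right of the blue one in its row.

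Mt2 was less abundant and followed Mt1 across classes, with astrocyte-like cells in front in the N-PRα-KO library. Astrocyte-like cells stood at 960 CPM (929 to 991) in N-PRα-KO and 156 CPM (147 to 166) in WT, a 6.15-fold difference. Ependymal-like cells stood at 802 CPM (777 to 829) and 562 CPM (529 to 596), a 1.43-fold difference. The ependymal-like level was thus below the astrocyte-like level in N-PRα-KO and above it in WT, and these intervals did not overlap.

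Outside these glia, Mt2 was scarce in the WT library. Endothelial-like cells had 268 CPM (254 to 282) in N-PRα-KO and 18.9 CPM (13.6 to 25.6) in WT, 14.1-fold apart. OPC-like cells had 169 CPM (128 to 218) and 18.2 CPM (16.3 to 20.3). The WT level of smooth-muscle-like cells rested on 2 UMIs, 12 CPM (1.46 to 43.5), against 157 CPM (139 to 176) in N-PRα-KO.

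The remaining classes lay between these levels or close to them. Neuronal-lineage-like cells had 198 CPM (176 to 223) in N-PRα-KO and 43.0 CPM (36.0 to 51.0) in WT. Fibroblast-like cells had 171 CPM (159 to 184) and 42.1 CPM (34.5 to 50.9), border-macrophage-like cells 186 CPM (155 to 220) and 39.0 CPM (16.8 to 76.9), and microglia-like cells 138 CPM (125 to 152) and 24.9 CPM (17.6 to 34.1). In N-PRα-KO, olfactory-sensory-neuron-like cells had 323 CPM (270 to 382) and arachnoid-barrier-like cells 283 CPM (261 to 306). Oligodendrocyte-like cells of the WT library had 15.6 CPM (9.53 to 24.1). From the neuronal-lineage-like cells downward, each WT interval overlapped that of the next class.

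The neuronal lineage was uneven for Mt2 and also for Mt1. Its cluster 9, led by Dlx1, Dlx2 and Insm1 and scoring for cell division genes, had Mt2 at 58.4 CPM (48.0 to 70.4) in WT and 254 CPM (219 to 294) in N-PRα-KO. Cluster 10, which did not score for division, had 19.8 CPM (10.8 to 33.2) and 141 CPM (107 to 182). The dividing cluster was higher in both libraries with no overlap, and its cells were deeper (median 7329 against 2989.5 UMIs in N-PRα-KO and 4062 against 1677.5 in WT). The dividing OPC-like cluster 5, however, had Mt2 at 17.2 CPM (13.1 to 22.2), overlapping the 19.3 CPM (16.3 to 22.8) of the largest non-dividing OPC-like cluster 0.

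Mt3, too, was led by ependymal-like cells, and of the members it differed least between the libraries in astrocyte-like cells. Ependymal-like cells stood at 1545 CPM (1509 to 1582) in N-PRα-KO and 944 CPM (902 to 988) in WT, 1.64-fold apart. Astrocyte-like cells stood at 746 CPM (719 to 774) and 368 CPM (354 to 382), 2.03-fold apart, a smaller difference than for Mt1 and Mt2 in the same cells.

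In the other classes Mt3 was low in WT and several times higher in N-PRα-KO. OPC-like cells had 226 CPM (179 to 282) and 46.8 CPM (43.6 to 50.1), the third level in WT. Endothelial-like cells had 296 CPM (281 to 310) and 32.4 CPM (25.4 to 40.8), the third level in N-PRα-KO and a 9.11-fold difference. Fibroblast-like cells had 176 CPM (164 to 189) and 20.9 CPM (15.6 to 27.3), an 8.44-fold difference in the class where Mt1 differed only 2.32-fold. That class held mostly different kinds of cells in the libraries, as described below. Within the Col15a1-rich kind Mt1 differed 9.44-fold and Mt3 5.72-fold. Within the Slc6a20a-rich kind they differed 3.26-fold and 9.32-fold.

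The remaining Mt3 levels were close to each other within a library. Neuronal-lineage-like cells had 191 CPM (169 to 215) and 31.6 CPM (25.6 to 38.5), border-macrophage-like cells 221 CPM (188 to 259) and 34.1 CPM (13.7 to 70.3), microglia-like cells 166 CPM (152 to 181) and 22.9 CPM (15.9 to 31.8), and smooth-muscle-like cells 168 CPM (150 to 188) and 24.1 CPM (6.56 to 61.6). Arachnoid-barrier-like cells of N-PRα-KO had 161 CPM (145 to 179), olfactory-sensory-neuron-like cells 184 CPM (145 to 231), and WT oligodendrocyte-like cells 20.3 CPM (13.2 to 29.7). Below endothelial-like cells in N-PRα-KO, and below astrocyte-like cells in WT, every class overlapped the next.

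Choroid-plexus-like cells, which make cerebrospinal fluid, were too few to compare (40 and 13 cells). In the 40 N-PRα-KO cells Mt3 was at 419 CPM (367 to 477) and Mt1 at 1375 CPM (1278 to 1476).

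Each member was higher in the N-PRα-KO library in 9 of 9 classes and at least 2-fold higher in 8 of 9, ependymal-like cells being the exception. Single genes often passed 2-fold here: of genes at 20 CPM or more, the share at least 2-fold higher in N-PRα-KO was 17.8% in OPC-like, 14.1% in astrocyte-like, 16.5% in border-macrophage-like, 17.2% in endothelial-like, 14.4% in ependymal-like, 18% in fibroblast-like, 16.5% in microglia-like, 17.0% in neuronal-lineage-like and 11.7% in smooth-muscle-like cells. The classes share a library and are not replicates. On the log2 scale the ratios ran from 0.64 to 3.56 for Mt1 (median 2.39), from 0.51 to 3.82 for Mt2 (median 2.47) and from 0.71 to 3.19 for Mt3 (median 2.69). Read against all genes, 1.09% of endothelial-like genes, 2.82% of astrocyte-like genes and 14.1% of fibroblast-like genes had a higher ratio than Mt1. In ependymal-like cells 22.5% of genes did.

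Base composition moved with these ratios. Across genes, the log2 ratio was higher with a higher GC content of the last 500 transcript bases in every class (Spearman's rho 0.48 to 0.66 across 6589 to 8400 genes, which are not independent replicates), and the members are GC-rich there, at 57.4% for Mt1, 55.8% for Mt2 and 62.6% for Mt3. With the trend removed, Mt1 was at least 2-fold higher in N-PRα-KO in 5 of 9 classes, Mt2 in 7 and Mt3 in 6. The shares of all genes were then 9.84% in OPC-like, 8.79% in astrocyte-like, 12.5% in border-macrophage-like, 10.8% in endothelial-like, 7.94% in ependymal-like, 11.6% in fibroblast-like, 9.28% in microglia-like, 8.82% in neuronal-lineage-like and 9.94% in smooth-muscle-like cells. Endothelial-like cells kept log2 ratios of 2.39, 2.68 and 2.01 for Mt1, Mt2 and Mt3, and astrocyte-like cells 1.23 and 1.53 for Mt1 and Mt2. Mt3 in astrocyte-like cells turned to -0.14, and in ependymal-like cells all 3 turned negative (-0.48, -0.59 and -0.41). Mt1 in fibroblast-like cells came to 0.01.

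**Figure D2:**
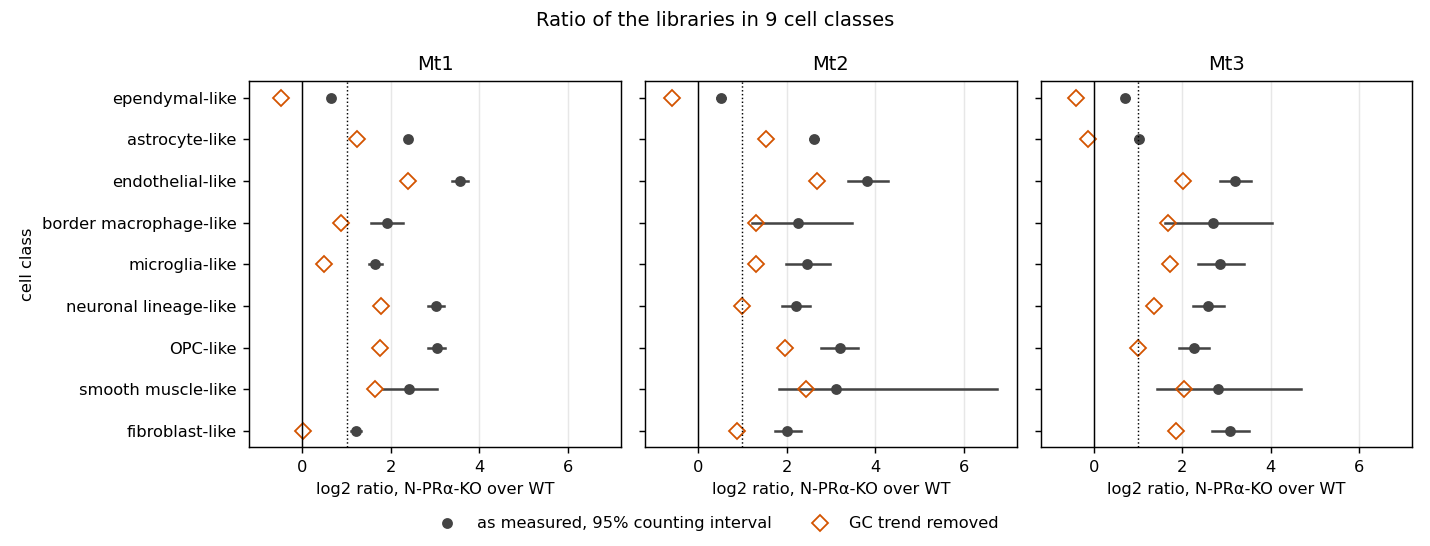
Log2 ratio of the N-PRα-KO over the WT library for Mt1, Mt2 and Mt3 in 9 cell classes, with exact 95% counting intervals (filled points) and after removal of the trend over GC content (open diamonds). Mt2 in smooth-muscle-like cells counts its 2 WT UMIs as 3. The solid line marks equal levels and the dotted line a 2-fold difference. All filled points lie right of the solid line, while the diamonds of ependymal-like cells lie left of it for all 3 genes.

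The proportion of the members to each other differed by class and library. Mt1 UMIs were set against Mt3 UMIs, each divided by the length of its principal transcript (549 bases for Mt1, 511 for Mt2, 536 for Mt3). This length-scaled ratio was 14.9 in WT fibroblast-like cells, from 810 and 53 UMIs, and 12.7 in WT microglia-like cells. It was 1.82 in WT astrocyte-like, 1.95 in OPC-like and 2.82 in ependymal-like cells. UMIs count molecules, so the unscaled counts are the direct measure. The value of the WT fibroblast-like class was not common to its cells: at a finer clustering, the Slc6a20a-rich cells held 756 Mt1 and 31 Mt3 UMIs and the Col15a1-rich cells 61 and 24. WT oligodendrocyte-like cells had 5.60, close to smooth-muscle-like cells at 5.86, the latter from 4 Mt3 UMIs. In N-PRα-KO the same ratio was 4.71 in astrocyte-like and 2.69 in ependymal-like cells and was similar in several unrelated classes, at 4.10 in fibroblast-like, 4.22 in neuronal-lineage-like, 4.31 in endothelial-like and 4.44 in smooth-muscle-like cells. Barcodes of that library that failed the cell filter had 4.07 in their sum, and those of the WT library 2.10. Arachnoid-barrier-like (8.20), olfactory-sensory-neuron-like (7.44), border-macrophage-like (5.66) and microglia-like cells (5.49) lay above that value.

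RNA outside its own cell can add UMIs to every class, so the members were set beside genes that define astrocytes. The lowest class level in N-PRα-KO was 740 CPM for Mt1, 138 for Mt2 and 161 for Mt3, and in WT 93.3, 12 and 20.3. Over the classes other than astrocyte-like and ependymal-like cells, the summed level of 12 astrocyte markers was 2.94% to 7.15% of its astrocyte-like level in N-PRα-KO and 1.43% to 7.22% in WT. All 12 markers had UMIs in each of these N-PRα-KO classes, while Agt was at 0 in WT microglia-like cells and Aldh1l1, Fgfr3 and Slc4a4 were at 0 in WT smooth-muscle-like cells. Mt1 in the same classes was 20.6% to 39.0% of its astrocyte-like level in N-PRα-KO and 13.6% to 49.7% in WT. The 12 ependymal markers were at 2.87% to 9.45% of their ependymal-like level in those N-PRα-KO classes and 0.324% to 2.96% in WT. Mt1 and Mt2 were each a larger fraction of their astrocyte-like level than the summed markers were in each of these classes. Mt3 was as well, except in WT fibroblast-like cells, at 5.68% against 7.16%. Single markers exceeded Mt1 in some classes, among them S1pr1 in N-PRα-KO endothelial-like cells (39.1% against 36.3%), Gja1 in N-PRα-KO fibroblast-like cells (24.8% against 20.6%) and Agt in WT endothelial-like cells (42.1% against 16.1%). How much of the members' UMIs came from outside the cell was not tested.

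The lowest class level of each library was also subtracted, which sets the class that supplies it to 0 by construction. In astrocyte-like cells 2860 CPM of Mt1 remained in N-PRα-KO and 594 in WT, and in endothelial-like cells 566 and 17.1. Fibroblast-like cells supplied the N-PRα-KO level of Mt1 and OPC-like cells the WT level, so neither gives a comparison. Microglia-like cells came to 192 and 205 and smooth-muscle-like cells to 23.6 and 51.1, so Mt1 was not higher in N-PRα-KO in these classes after subtraction.

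**Figure D3:**
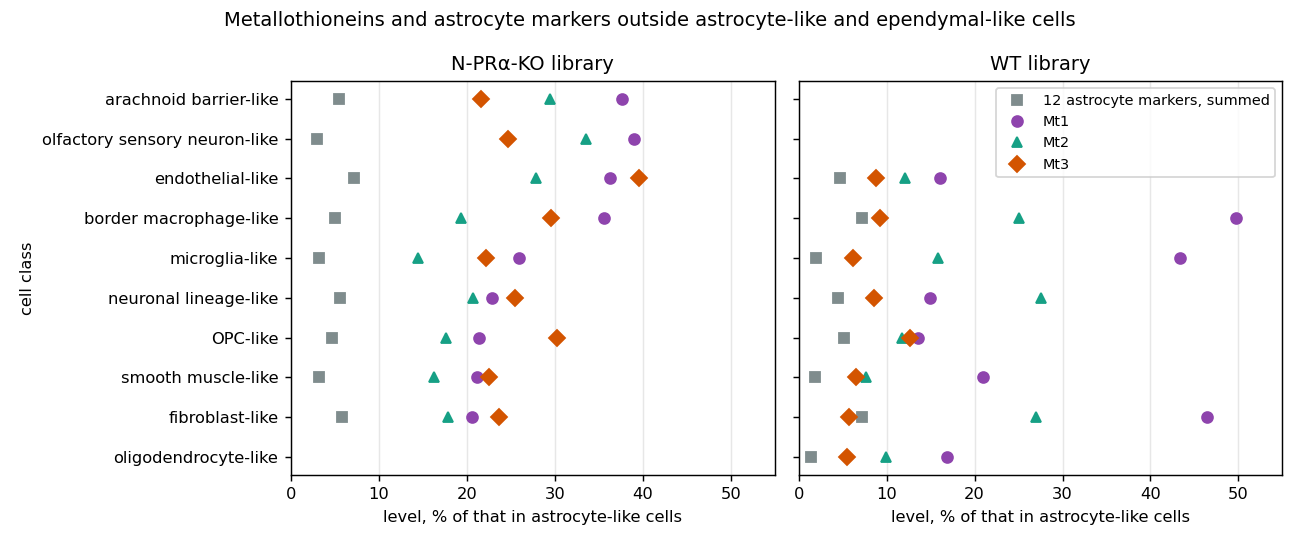
Levels of Mt1, Mt2, Mt3 and of 12 summed astrocyte markers in each class other than astrocyte-like and ependymal-like cells, as a percentage of the level in astrocyte-like cells of the same library (left N-PRα-KO, right WT). The marker sums stay at or below 7.22%, and the Mt1 points lie to their right in every row.

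Fibroblasts were the cells the study set out to examine, and there the class level hid unlike cells. At a finer clustering (Leiden resolution 2) fibroblast-scoring cells of both libraries fell into 2 kinds, described here after their values were seen. One (clusters 7 and 24 at that resolution, named fibroblast-like) was rich in Col15a1, a basement membrane collagen. The other (clusters 16 and 19) was rich in Slc6a20a, an amino acid transporter, and Aldh1a2, which makes retinoic acid. It scored for arachnoid barrier markers next after fibroblast markers and stayed unnamed there. Of 498 WT fibroblast-like cells, 370 were of the Slc6a20a-rich kind and 128 of the Col15a1-rich kind, whereas 623 of 625 N-PRα-KO ones were Col15a1-rich and 320 Slc6a20a-rich cells sat in the arachnoid-barrier-like class. Col15a1 itself was at 4540 and 2892 CPM in the first kind (N-PRα-KO and WT) against 612 and 445 in the second, and Slc6a20a at 81.4 and 196 against 1399 and 2169.

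Within each kind, Mt1 was higher in N-PRα-KO by more than the class level showed. Col15a1-rich cells had 739 CPM (714 to 765) in N-PRα-KO and 78.3 CPM (59.9 to 101) in WT, a 9.44-fold difference (log2 3.24, interval 2.87 to 3.63). Slc6a20a-rich cells had 1372 CPM (1322 to 1424) and 421 CPM (391 to 452), a 3.26-fold difference (log2 1.70, interval 1.59 to 1.82). The 2.32-fold difference of the fibroblast-like class therefore set mostly Col15a1-rich cells against mostly Slc6a20a-rich ones. The GC trend was removed from none of the within-kind ratios here or below. Its removal took the Mt1 log2 ratio of the fibroblast-like class from 1.21 to 0.01.

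Slc6a20a-rich cells held more Mt1 than Col15a1-rich cells in both libraries, 1.86-fold in N-PRα-KO and 5.37-fold in WT. For Mt2 the kinds differed 1.68-fold in N-PRα-KO (288 against 172 CPM), while in WT (45.1 against 34.7 CPM) the interval of the log2 ratio, -0.26 to 1.07, included 0. Mt3 did not follow: it was at 161 against 176 CPM in N-PRα-KO (log2 interval -0.32 to 0.06) and at 17.3 against 30.8 CPM in WT. Between the libraries Mt2 was 4.95-fold and Mt3 5.72-fold higher in N-PRα-KO in the Col15a1-rich kind, and 6.38-fold and 9.32-fold in the Slc6a20a-rich kind.

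**Figure D4:**
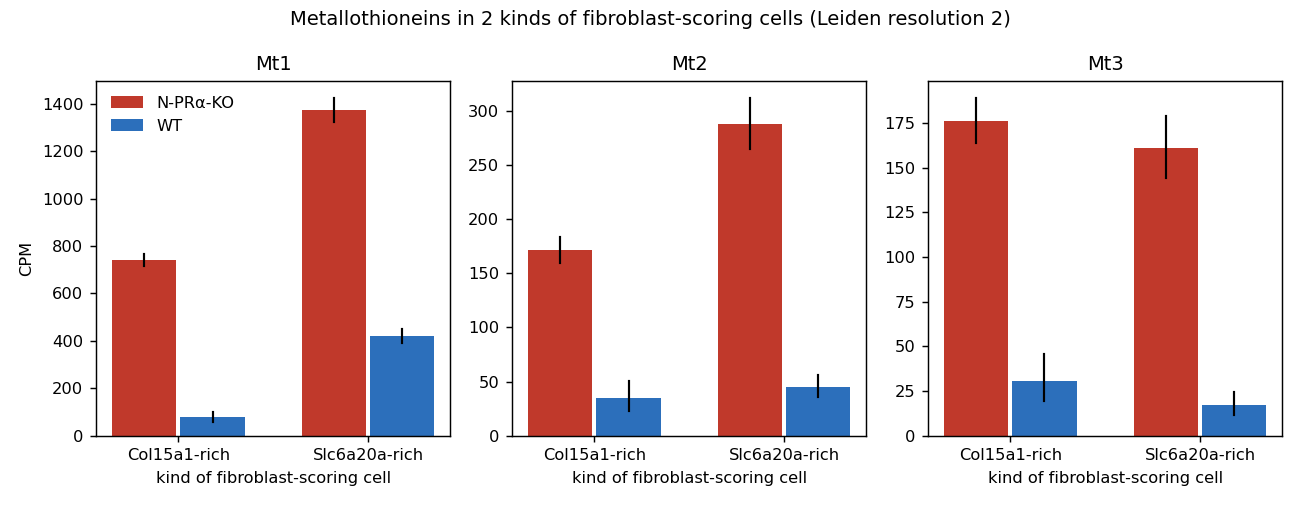
Mt1, Mt2 and Mt3 (CPM) in Col15a1-rich and Slc6a20a-rich fibroblast-scoring cells of the N-PRα-KO (red) and WT (blue) libraries; lines are exact Poisson 95% intervals. Mt1 is higher in the Slc6a20a-rich kind in both libraries, while Mt3 is not.

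Mt1 in WT Slc6a20a-rich cells was concentrated in few cells and in those with a high mitochondrial share. The 10% of these 377 cells with the most Mt1 held 68.1% of its UMIs, against 34.1% in the 321 N-PRα-KO cells of that kind, which were deeper (median 5411 against 3950 UMIs). WT cells of this kind with over 15% mitochondrial UMIs (270 cells) had Mt1 at 505 CPM (467 to 544) and those with at most 15% (107 cells) had 190 CPM (153 to 234). In N-PRα-KO the same split gave 1377 and 1368 CPM, with overlapping intervals. These totals include mitochondrial UMIs. With such UMIs left out, Mt1 was also higher above 15% in astrocyte-like cells (4889 against 3528 CPM in N-PRα-KO, 914 against 706 CPM in WT). The same held in the other classes split this way, except WT neuronal-lineage-like cells (114 against 116 CPM). Immediate early genes, which are switched on by stimulation or dissociation, summed in WT Slc6a20a-rich cells to 19920 CPM above 15% and 27656 CPM at or below it. In the N-PRα-KO cells of that kind they summed to 5423 and 8833 CPM. These splits were chosen after the values were seen, and the part of cell quality in Mt1 was not tested.

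Astrocyte-like clusters of a library lay closer to each other. The Thbs4-led clusters 21 (N-PRα-KO) and 3 (WT) had Mt1 at 3241 CPM (3134 to 3351) and 645 CPM (613 to 678), and clusters 14 (N-PRα-KO) and 4 (WT), which share Hapln1 and Grm3 among their leading genes, had 3741 CPM (3669 to 3813) and 697 CPM (672 to 722). WT cluster 20, shallow at a median of 1249 UMIs, had 822 CPM (740 to 910). The difference between the libraries was thus several times that between astrocyte-like clusters of 1 library. For Mt3 the same 5 clusters ranged from 664 to 779 CPM in N-PRα-KO and from 333 to 390 CPM in WT.

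Cells were also compared after thinning each to 2000 UMIs, with shallower cells left out (97 of 666 N-PRα-KO and 464 of 1832 WT astrocyte-like cells). Mt1 was then seen in 98.8% of N-PRα-KO astrocyte-like cells (Clopper-Pearson 95% interval 97.5% to 99.5%) and 67.8% of WT ones (65.2% to 70.2%). Unthinned, the shares were 99.7% and 75.9%. The thinned mean was 7.05 UMIs in N-PRα-KO with a variance 2.77 times the mean, and 1.32 UMIs in WT with a variance 1.39 times the mean. A Poisson count has a variance equal to its mean, so astrocyte-like cells of both libraries varied in Mt1 beyond counting. In WT the 67.8% of cells with Mt1 compares with 73.3% for a Poisson count of the same mean. At an equal relative spread between cells the variance over the mean grows with the mean, so these ratios do not rank the libraries.

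In fibroblast-like cells the WT library had the larger variance relative to the mean, in a class that mixed 370 Slc6a20a-rich and 128 Col15a1-rich cells, while nearly all N-PRα-KO cells were of the Col15a1-rich kind. Thinned N-PRα-KO cells had Mt1 in 74.6% of cells, where a Poisson count of the same mean gives 77.7%, and a variance 1.22 times the mean. WT cells had it in 28.1%, against 38.9% for a Poisson count, with a variance 2.48 times the mean. WT microglia-like cells also fell short of their Poisson share (32.9% against 41.2%), and N-PRα-KO ones less so (82.1% against 84.9%). No cell class here is known to lack Mt1, so a background share of cells could not be set.

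**Figure D5:**
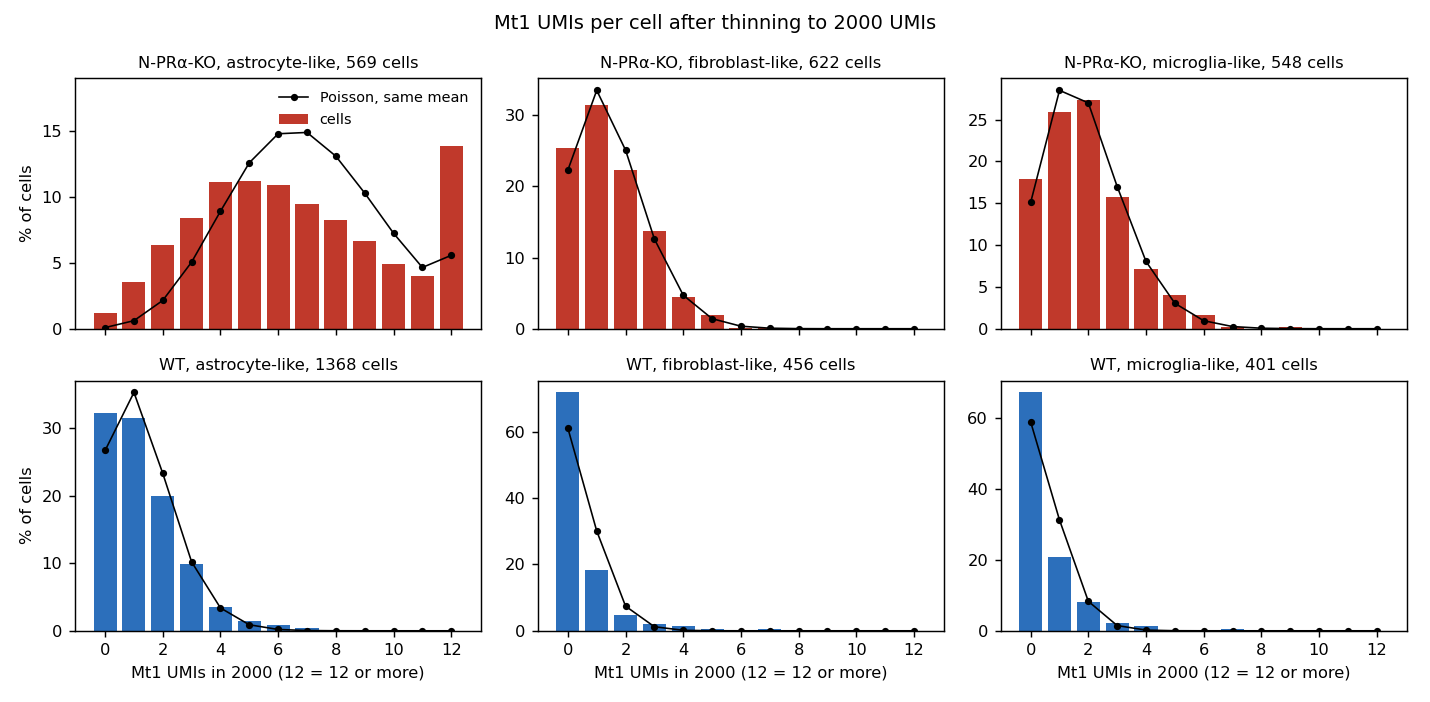
Percentage of cells (bars) with a given number of Mt1 UMIs after thinning to 2000 UMIs per cell, in astrocyte-like, fibroblast-like and microglia-like cells of the N-PRα-KO (top) and WT (bottom) libraries; dots and lines give a Poisson count of the same mean. Bars exceed the dots at both ends in N-PRα-KO astrocyte-like cells and at 0 in WT fibroblast-like cells.

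Cells with more Mt1 also tended to hold more Mt2 in some classes. On log2(UMIs + 1) over thinned cells, Pearson's r between Mt1 and Mt2 was 0.37 in 569 N-PRα-KO astrocyte-like cells and 0.33 in 331 arachnoid-barrier-like cells of that library. It was 0.26 in 268 WT ependymal-like and 0.18 in 448 N-PRα-KO ependymal-like cells, although the latter held the most Mt1 per thinned cell (mean 8.24 UMIs), and 0.12 in 1368 WT astrocyte-like cells. Between Mt1 and Mt3 it was 0.20 in N-PRα-KO astrocyte-like and -0.02 in arachnoid-barrier-like cells. Cells of 1 library share their preparation, and these values are descriptions.

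Across classes, the gene most like Mt1 was Mt2. Likeness was Pearson's r of log2(CPM + 1) over the 11 N-PRα-KO classes and, apart, the 10 WT classes with at least 50 cells, ranked by the smaller value among 6630 genes. Mt2 reached 0.957 in N-PRα-KO and 0.910 in WT, followed by Naaa, an amidase of lipid signalling, Dnaic1, a dynein chain of motile cilia, Rasgrp1, an activator of Ras, and Pink1, a mitochondrial kinase. The genes most like Mt2 were P4ha3, a collagen prolyl hydroxylase subunit (0.924 and 0.938), Mt1, Maob, Plagl1 and Mlc1. For Mt3 they were Dbi, an acyl-CoA binding protein of glia (0.974 and 0.984), Mlc1, Pink1, Clu and Slc25a18, with Mt2 in place 17 and Mt1 in place 46. Each r is over classes that share 1 library, and it is a description.

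Per cell the likeness was weak and is no finding. Within astrocyte-like cells the genes next to Mt1 after Mt2 were Gfap (r of 0.16 in N-PRα-KO and 0.11 in WT), Dbi, Hopx and Mt3, and within fibroblast-like cells no gene passed 0.12 in both libraries for Mt1.

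Genes of the pathways that act on metallothioneins were counted in lists chosen with earlier results of these data known. In astrocyte-like cells the metal handling list had 23 of its 35 genes at 20 CPM or more, of which 11 were higher in N-PRα-KO, 6 at least 2-fold (14.1% of all genes) and 0 at least 2-fold lower (7.45% of all genes), with a median log2 ratio of -0.01 against -0.15 over all genes. Mtf1, the metal sensor, was at 18.4 CPM in N-PRα-KO and 22.8 in WT (log2 -0.30, interval -0.73 to 0.11). Slc30a1, the zinc exporter that MTF1 also drives, was at 53.8 and 48.8 CPM (log2 0.14, interval -0.12 to 0.39). Both intervals include 0 and cover counting error only. Whether metals had a part in the Mt1 difference was not tested. The list's largest ratios were of Cp, the copper oxidase ceruloplasmin (27.8 and 5.11 CPM), Sod3, the extracellular superoxide dismutase (89.4 and 21.8 CPM), and the copper chaperone Atox1 (80.8 and 22.9 CPM), whose log2 ratio of 1.82 came to 0.66 with the GC trend removed.

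The glucocorticoid-responsive list had the highest median of the 5 lists in astrocyte-like cells. Of its 15 genes at 20 CPM or more, 13 were higher in N-PRα-KO. At least 2-fold higher were 11 (14.1% of all genes), and at least 2-fold lower 0 (7.45% of all genes). The median log2 ratio was 1.92, against -0.15 over all genes, and 2.12 without the GC trend. Txnip, which binds thioredoxin, was at 401 CPM in N-PRα-KO and 13.1 in WT. Sult1a1, a sulfotransferase, was at 48.3 and 2.21 CPM, and Fkbp5, a chaperone partner of the glucocorticoid receptor, at 23.6 and 1.93 CPM. These 3 genes, named for the largest ratios of the list, differed by 4.94, 4.45 and 3.61 on the log2 scale. As measured, the list median of 1.92 lay below the log2 ratios of Mt1 (2.39) and Mt2 (2.62) in the same cells. With the GC trend removed it lay above them, at 2.12 against 1.23 for Mt1 and 1.53 for Mt2.

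The other lists were mixed in astrocyte-like cells. Of all genes there, 14.1% were at least 2-fold higher and 7.45% at least 2-fold lower, with a median log2 ratio of -0.15. The oxidative stress list held NRF2 itself, its inhibitor Keap1 and genes of its pathway. It had 3 of 12 genes higher and 1 at least 2-fold, with a median of -0.36 that came to -0.09 with the GC trend removed. That gene was Keap1 (28.6 and 5.66 CPM), whose log2 ratio of 2.34 came to 1.32 with the GC trend removed. Txn1 (258 and 398 CPM) and the cystine transporter Slc7a11 (214 and 331 CPM) were lower. Their log2 ratios of -0.63 and -0.63 came to -0.18 and -0.22 with the GC trend removed. Of the reactive glia and acute phase list 8 of 10 genes were higher, 5 at least 2-fold and 1 at least 2-fold lower (median 0.92), led by the complement gene C4b (133 and 9.25 CPM), Serpina3n (51.4 and 10.5 CPM) and Serping1 (32.0 and 7.87 CPM). Of the immediate early list 4 of 14 were higher and 5 at least 2-fold lower (median -0.38), with Fos at 118 and 734 CPM, Egr1 at 79.0 and 231 CPM and Btg2 at 25.7 and 77.4 CPM.

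In fibroblast-like cells, with their different kinds in the libraries, the glucocorticoid-responsive list had 6 of 13 genes higher in N-PRα-KO, 2 at least 2-fold (18% of all genes) and 3 at least 2-fold lower (10.3% of all genes), with a median of -0.23. Tsc22d3, which encodes the glucocorticoid-induced leucine zipper, was at 64.8 and 16.9 CPM, but Gjb6, a connexin, was at 49.0 and 1128 CPM and Dusp1, a phosphatase, at 50.6 and 752 CPM. The metal handling list had 16 of 23 higher, 4 at least 2-fold and 2 at least 2-fold lower (median 0.17), with Sod3 at 482 and 118 CPM, Atox1 at 97.4 and 26.8 CPM, the copper transporter Slc31a2 at 11.1 and 34.7 CPM, Mtf1 at 10 and 11.8 CPM (log2 interval -0.94 to 0.48) and Slc30a1 at 56.8 and 35.1 CPM. The log2 ratio of Slc30a1 there was 0.70 with an interval of 0.34 to 1.06 that excludes 0, unlike in astrocyte-like cells. The oxidative stress list had 3 of 14 higher, 1 at least 2-fold and 3 at least 2-fold lower (median -0.44), with Slc7a11 at 301 and 2173 CPM, Me1 at 13.4 and 51.6 CPM and Keap1 at 33.0 and 8.27 CPM. The reactive list had 3 of 10 higher, all at least 2-fold, and 4 at least 2-fold lower (median -0.85), with Socs3 at 12.3 and 183 CPM, Cebpb at 38.3 and 202 CPM and the astrocyte gene Gfap at 160 and 24.4 CPM. The immediate early list had 0 of 20 higher and 19 at least 2-fold lower (median -3.13), with Fos at 198 and 4509 CPM, Klf4 at 35.2 and 1008 CPM and Atf3 at 6.46 and 250 CPM.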

How the data were processed

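Both libraries were made with the BD Rhapsody whole-transcriptome kit, per the labels' protocols. The deposited values are raw UMI counts per cell barcode and gene, which the authors made with BD's WTA pipeline, release 1.10 (N-PRα-KO) and 1.10.1 (WT), on GRCm38 with GENCODE M19, per the file headers; the submitters' processing notes also name mm10. Run dates in the headers differ, with the aligner not given in the sources used here.

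The libraries held 41982217 (N-PRα-KO) and 43459947 (WT) UMIs. Scrublet called 10 (0.238%) and 174 (1.73%) of the cells that passed the limits. Clustering (scanpy 1.11.5, leidenalg 0.10.2) used 2000 variable genes per library without the members, 30 components, 20 neighbours and resolution 1, with no integration. A cluster was named where its marker folds averaged at least 0.5 (log2), led the next class by 0.5 and rested on at least 3 detected markers; 84 and 223 cells stayed unnamed. Ratios carry exact conditional intervals, with counts under 3 set to 3; the GC trend was a running median over genes. The text names the members, the 3 genes of each list with the largest absolute ratio in 2 classes plus Mtf1 and Slc30a1, and the 5 genes most like each member. Alternatives covered scaling (edgeR 4.0.16 TMM), filters, thinning, clustering, GC content and background. The ratio, GC and likeness code was tested on simulated data. The members and lists were chosen with earlier results of these data known.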

Additional observations from a re-analysis of the deposited data

Results flagged for a closer look

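Barcodes that failed the cell filter, which entered no comparison, held more metallothionein in the N-PRα-KO library than in the WT library. In the 4140 failed N-PRα-KO barcodes Mt1 was at 1450 CPM (1428 to 1472), Mt2 at 321 CPM (311 to 331) and Mt3 at 348 CPM (337 to 359). In the 1369 failed WT barcodes they were at 531 CPM (506 to 557), 116 CPM (104 to 128) and 247 CPM (230 to 265). With mitochondrial UMIs left out of the total, Mt1 was at 3495 CPM in failed and 2183 CPM in kept N-PRα-KO barcodes, and at 875 and 425 CPM in WT.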

How the results depend on the processing

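The counts of classes with a higher level in N-PRα-KO, 9 for each member, ranged from 5 to 9 over the alternatives. A mitochondrial limit of 15% gave 5 of the 5 classes that still had 50 cells in both libraries, and no fibroblast-like value. Removing the GC trend gave 8, 8 and 7 of 9 classes for Mt1, Mt2 and Mt3. Subtracting the lowest class level gave 6, 8 and 9 of 9, counting classes set to 0 by construction. In astrocyte-like cells TMM and median-of-ratios scaling gave log2 ratios of 2.29 and 2.29 for Mt1, 2.52 and 2.52 for Mt2 and 0.92 and 0.92 for Mt3; the 15% limit gave 2.32 for Mt1 and 2.48 for Mt2; removing the GC trend gave 1.23, 1.53 and -0.14, the last in the opposite direction; subtracting the lowest class level gave 2.27, 2.51 and 0.75. In fibroblast-like cells Mt1 (1.21) came to 1.62 with each cell weighing the same, 1.60 after thinning, 3.19 with at least 1000 genes per cell, 3.24 at resolution 2, 0.01 without the GC trend and 1.57 joined with arachnoid-barrier-like cells, an alternative chosen after seeing the data. Mt2 there (2.02) came to 0.89 without the GC trend and 0.14 with the lowest level subtracted. Mt3 (3.08) came to 2.57 with 1000 genes, 2.52 at resolution 2, 1.87 without the GC trend and 4.65 with the lowest level subtracted. The 4.65 divides by a WT excess of 0.601 CPM, which is small beside the interval of that WT level (15.6 to 27.3 CPM). Subtraction leaves no Mt1 ratio in fibroblast-like cells, which were the lowest class. At resolution 2 the fibroblast-like class holds the Col15a1-rich kind alone, whose ratios these are; the causes of the other shifts were not tested. TMM shifted the log2 ratios by up to 0.24 (OPC-like cells). At 1 CPM in place of 20, the median share of genes at least 2-fold higher was 20.6% in place of 16.5%. No paired analysis was possible because each genotype has 1 library. WT counts limit Mt2 and Mt3 outside glia.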

Other observations

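Among the endothelial-like cells was a cluster that both libraries shared, led by Gkn3 and Sema3g, genes known from arteries. Mt1 in it was at 1172 CPM (1099 to 1248) in 77 N-PRα-KO cells and 186 CPM (148 to 231) in 71 WT cells. The other main endothelial-like cluster of each library had 1331 CPM in N-PRα-KO and 91.3 CPM in WT, so the Gkn3-led cluster was the lower one in N-PRα-KO and the higher one in WT. Its Mt3 was at 277 CPM (242 to 315) and 40.4 CPM (24.0 to 63.9).

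An unnamed cluster led by Shisa3 and Slc26a7, also of both libraries, had Mt1 at 1526 CPM (1429 to 1629) in 52 N-PRα-KO cells and 215 CPM (184 to 250) in 109 WT cells. Mt2 there was at 256 CPM (217 to 300) and 18.8 CPM (10.5 to 31.0). Another unnamed cluster, led by the neutrophil genes S100a8 and Ngp, had Mt1 at 203 CPM (163 to 251) and Mt2 at 44.4 CPM (26.7 to 69.3) in 114 WT cells.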
